A study of Mus musculus with 9 samples.

Results

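AP-1 is a family of transcription factors of the basic leucine zipper (bZIP) class, and 10 of its genes were followed here in myeloid progenitors (MPs) of the mouse: Fos, Fosb, Fosl1, Fosl2, Jun, Junb, Jund, Atf3, Batf and Batf3. They were taken by name from the 37980 genes of the deposited table, and all 10 were found. The study compared, by bulk RNA sequencing, MPs that arose from multipotent progenitors (MPPs) carrying a Nup98-Hoxa10hd fusion gene (NA) with wild-type (WT) MPs. There were 4 NA MP and 5 WT MP samples. NA cells came from C57BL/6 mice of genotype NA LSL/+; Vav-Cre, in which a Cre driven by the Vav promoter removes a stop cassette in blood cells, and the fusion keeps the homeodomain of Hoxa10 but not the rest of that protein. Donor MPPs were injected with helper bone marrow cells into irradiated adult C57BL/6 recipients, and bone marrow MPs were sorted 3 months later according to the labels (the methods give a later month) as Lin-c-kit+Sca1- cells, the same number for every sample. NA MPs were gated as Tdtomato+ and WT MPs as CD45.2+, the marker that the methods give to recipients, so whether WT MPs came from donor or recipient cells could not be told. Neither source says whether each sample was a separate mouse, so that p-values measure the spread between samples, which may be technical.

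AP-1 acts as a dimer. Jun proteins pair with each other or with Fos proteins, Fos proteins need a Jun partner, and Atf3 and the Batf proteins bind DNA with Jun partners too. Fos, Fosb, Jun and Junb are immediate early genes: their RNA appears soon after a growth factor, cytokine or stress signal reaches the cell, without new protein synthesis, and is lost soon after. In blood cells AP-1 factors are known for parts in myeloid differentiation and in the activation of mature cells.

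In short, 5 members were higher in NA MPs than in WT MPs by limma with Benjamini-Hochberg adjustment over all tested genes: Fos, Fosb, Jun, Junb and Jund. Their mean levels differed by between 2.92-fold (Junb) and 19.6-fold (Fosb). Atf3 was close to absent from WT MPs and rose with them in NA MPs, Fosl2 and Batf did not pass the test, and Fosl1 and Batf3 were near the limit of detection. The same 5 genes also varied far more between replicates of 1 group than most genes did, and in nearly the same order of samples.

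The Fos and Jun genes are small and compact. In the GENCODE M21 annotation of GRCm38 (mm10), Fos lies at chr12:85473890-85477273 on the plus strand, Fosb at chr7:19302696-19310051 on the minus strand, Jun at chr4:95049034-95052222 on the minus strand as a single exon, Junb at chr8:84974484-84978718 on the minus strand and Jund at chr8:70698949-70700616 on the plus strand, also as a single exon. Fosl1 (chr19:5447547-5455946, plus) and Fosl2 (chr5:32135801-32157842, plus) are the other Fos genes. Batf (chr12:85686669-85709087, plus) lies on the same chromosome as Fos, and Batf3 (chr1:191097847-191108945, plus) is near Atf3 (chr1:191170296-191218039, minus).

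Because most of these genes moved together, the promoter sequence of 5 that rose is shown beside that of Batf, which did not. Each line holds the 150 bases before the RefSeq start site, 5′ to 3′ on the gene's own strand, from RefSeq on GRCm38.p6. Capitals mark a match to TGACG on either strand (CGTCA is its reverse complement; the core of a cyclic AMP response element) or to TGANNTCA, the spelling of the longer AP-1 and CREB site with 2 free bases. The intervals are chr12:85473740-85473889 for Fos, chr7:19310046-19310195 for Fosb, chr4:95052223-95052372 for Jun, chr8:84978749-84978898 for Junb, chr1:191183334-191183483 for Atf3 and chr12:85686570-85686719 for Batf.
Fos: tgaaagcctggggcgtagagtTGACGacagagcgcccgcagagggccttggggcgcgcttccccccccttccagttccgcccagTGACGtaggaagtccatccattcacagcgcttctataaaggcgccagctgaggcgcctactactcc
Fosb: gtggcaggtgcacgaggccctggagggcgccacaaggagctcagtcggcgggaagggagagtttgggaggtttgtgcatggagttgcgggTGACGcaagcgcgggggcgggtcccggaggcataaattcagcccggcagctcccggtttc
Jun: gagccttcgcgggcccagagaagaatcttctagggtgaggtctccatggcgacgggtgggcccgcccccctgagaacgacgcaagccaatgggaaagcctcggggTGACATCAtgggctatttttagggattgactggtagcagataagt
Junb: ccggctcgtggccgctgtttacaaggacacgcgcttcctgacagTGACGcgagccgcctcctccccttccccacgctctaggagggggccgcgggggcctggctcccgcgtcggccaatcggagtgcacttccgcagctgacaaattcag
Atf3: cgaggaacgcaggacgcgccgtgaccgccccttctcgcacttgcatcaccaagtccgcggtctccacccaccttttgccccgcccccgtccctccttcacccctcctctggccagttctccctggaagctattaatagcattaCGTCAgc
Batf: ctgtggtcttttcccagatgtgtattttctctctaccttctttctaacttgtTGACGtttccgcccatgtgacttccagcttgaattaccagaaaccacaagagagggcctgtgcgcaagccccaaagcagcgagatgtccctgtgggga

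In windows from 250 bases before to 50 bases after the start, read for 32851 RefSeq promoters and for 9 of the 10 members (Fosl1 had no entry), TGACG was found in 20.8% of all promoters. It stood at -129 and -66 in Fos, -60 in Fosb, -106 in Junb, -7 in Atf3 and -98 in Batf, counted from the start site to the first base of the match. TGANNTCA, which can overlap TGACG, was found in 14.1% of all promoters. It stood at -45 and 2 in Jun and at -61 in Jund, whose RefSeq window begins upstream of its GENCODE start. The Atf3 window lies inside its GENCODE gene, far downstream of the GENCODE start. The shorter AP-1 site TGANTCA was in 7.81% of all promoters and in no member's window. These matches are letters in a window. Batf holds 1 without a change in its level, and Fosl2 and Batf3 hold none.

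Levels are given as scaled counts, the expected counts of the RSEM program divided by 1 factor per sample, so that the 9 columns had nearly equal sums. Recovered depths were 5557718 to 8106140 reads in NA MPs and 6141707 to 7751467 reads in WT MPs, and no pair of replicates differed by as little as read sampling alone would give. Hoxa10, whose homeodomain the fusion carries, was at 129 ± 17.7 scaled counts in NA MPs and 8.05 ± 2.57 in WT MPs, and Nup98 at 956 ± 81.8 and 599 ± 29.9 (SD). The table has no entry for the fusion itself. In a principal component analysis the first component held 65.8% of the variance and separated the groups, while NA MP replicate 1 stood apart from the other NA MPs on the second, which held 6.12%. Tests were run on 11987 genes with at least 10 scaled counts in at least 4 samples, on log2(value + 1), so fold changes on that scale understate those of low genes. Of the 10 members, 7 passed this filter, all of them with more than 10 scaled counts in every one of the 9 samples.

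Fos, the founding member and the usual partner of Jun, was at 4103, 2691, 5696 and 5900.0 scaled counts in NA MP replicates 1 to 4, and at 353, 502, 661, 894 and 676 in WT MP replicates 1 to 5. The groups did not overlap, and the lowest NA MP lay 3.01-fold above the highest WT MP. Mean levels were 4598 ± 1503 (SD, n = 4) and 617 ± 203 (SD, n = 5), a 7.45-fold difference, and limma gave a log2 fold change of 2.90 (SE 0.34, adjusted p = 0.000372). As these are bulk samples, more cells that express a gene and more of its RNA per cell cannot be told apart.

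Fosb, which encodes a close relative of Fos with the same partners, had the largest difference of the tested members. It was at 1312, 913, 2647 and 2965 scaled counts in the NA MPs and at 51.8, 77.9, 89.7, 139 and 143 in the WT MPs. The gap between the groups was wide, with the lowest NA MP at 6.40 times the highest WT MP. The means were 1959 ± 999.5 (SD, n = 4) and 100.2 ± 39.6 (SD, n = 5), 19.6-fold apart, with a log2 fold change of 4.21 by limma (SE 0.46, adjusted p = 0.000256).

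Fosl1 and Fosl2 encode Fra-1 and Fra-2, Fos proteins that lack the strong activation domain of Fos. Fosl2 was at 156, 182, 187 and 165 scaled counts in NA MPs and at 201, 176, 199, 205 and 191 in WT MPs, so the ranges overlapped. Its means of 173 ± 14.4 (SD, n = 4) and 194 ± 11.3 (SD, n = 5) gave a log2 fold change of -0.17 (SE 0.075), which missed the threshold in limma (adjusted p = 0.0738). That call rested on single libraries and on the scaling, because the adjusted p was 0.0430 without NA MP replicate 3, 0.0442 without WT MP replicate 2 and 0.0495 with scaling to library size. Fosl1 was barely detected, with 5 reads over the 4 NA MPs and 1 read over the 5 WT MPs (exact permutation p = 0.0952), too few to compare.

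Jun, which can pair with itself as well as with Fos, had the highest scaled counts of the family in both groups. It was at 5262, 3539.7, 6044 and 6522 in NA MPs and at 807, 1122, 1364, 1852 and 1389 in WT MPs, again without overlap. Mean levels of 5342 ± 1309 (SD, n = 4) and 1307 ± 384 (SD, n = 5) differed 4.09-fold, with a log2 fold change of 2.05 by limma (SE 0.28, adjusted p = 0.000867).

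Junb, a Jun protein that in many settings opposes Jun and that restrains the growth of myeloid cells, changed less than the other 4 called members. Its scaled counts were 1016, 719, 1241 and 1314 in NA MPs and 295, 314, 362, 500.3 and 364 in WT MPs. The groups lay apart, though the lowest NA MP was only 1.44 times the highest WT MP, the narrowest gap of the called members. The means, 1073 ± 268 (SD, n = 4) and 367 ± 80.4 (SD, n = 5), gave a log2 fold change of 1.53 in limma (SE 0.22, adjusted p = 0.00131).

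Jund, in many cells the steadily expressed Jun gene rather than an immediate early one, rose here as well. It was at 974, 758, 1372 and 1475 scaled counts in NA MPs and at 197, 204, 258, 339 and 270.2 in WT MPs, with no overlap. Means of 1145 ± 336 (SD, n = 4) and 254 ± 57.4 (SD, n = 5) were 4.51-fold apart, and limma gave a log2 fold change of 2.15 (SE 0.25, adjusted p = 0.000356).

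Exons of all 3 Jun genes are overlapped by a gene on the other strand, and since the strand setting of the counting was not given in the sources used here, reads of the overlapping bases cannot be assigned with certainty. For Jun it is the antisense gene Junos, over 232 bases, at 143 ± 34.0 scaled counts in NA MPs and 42.9 ± 15.6 in WT MPs. For Jund it is the antisense gene Gm11175, over 877 bases, more of its length than for the other Jun genes, at 441 ± 126.4 and 94.0 ± 28.5. Both moved the way their Jun gene did, with log2 fold changes of 1.75 (limma, adjusted p = 0.00224) and 2.22 (limma, adjusted p = 0.000493). For Junb it is Prdx2, a peroxiredoxin gene, over 173 bases, which went the other way at 1391 ± 97.4 and 1619 ± 72.3 (log2 fold change -0.22, limma adjusted p = 3.37e-05).

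Atf3 encodes a bZIP protein induced by many stresses that pairs with Jun proteins. It was at 4.80, 16.2, 98.0 and 76.9 scaled counts in the NA MPs and at 0, 0, 0, 2.0 and 0 in the WT MPs, too low in most samples to pass the filter. Every NA MP was above every WT MP, and the exact two-sided permutation test over samples gave p = 0.0159, the smallest that 4 against 5 samples allow. In reads, 201 over the 4 NA MPs stood against 2 over the 5 WT MPs, a ratio of 132 per unit depth with an exact 95% interval of 36.0 to 1095 that covers counting error only. The NA MPs themselves differed 20.4-fold from lowest to highest. With the filter on low values removed, Atf3 was called by limma (log2 fold change 4.57, SE 0.86, adjusted p = 0.00550 over 20123 genes).

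Batf and Batf3 encode small bZIP proteins that bind with Jun partners and are best known from lymphocytes and dendritic cells. Batf was at 104, 99.1, 73.5 and 92.6 scaled counts in NA MPs and at 87.4, 101, 97.8, 91.1 and 95.04 in WT MPs, with NA MP replicates on both sides of the WT range. Its log2 fold change was -0.04 (SE 0.11, limma adjusted p = 0.799), and without NA MP replicate 3 it was 0.063. Batf3 was at 0.827 to 7.79 scaled counts in NA MPs and 1.02 to 7.0 in WT MPs, 15 and 18 reads in all, with no detectable difference at this depth (exact two-sided permutation p = 0.873).

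In all, 5 of the 7 tested members were higher in NA MPs and 0 were lower by limma at an adjusted p under 0.05; at an unadjusted p under 0.05 the lower count was 1, Fosl2. Across all tested genes, 34.3% were called, 16.9% as higher and 17.3% as lower, and 2.56% were called with a rise of more than 2-fold, as all 5 members were. Groups without overlap, with NA MPs above, were seen for these 5 members and Atf3, and for 13.5% of all tested genes. The median log2 fold change of the 7 tested members was 2.05, beside -0.0081 for all tested genes.

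**Figure D1:**
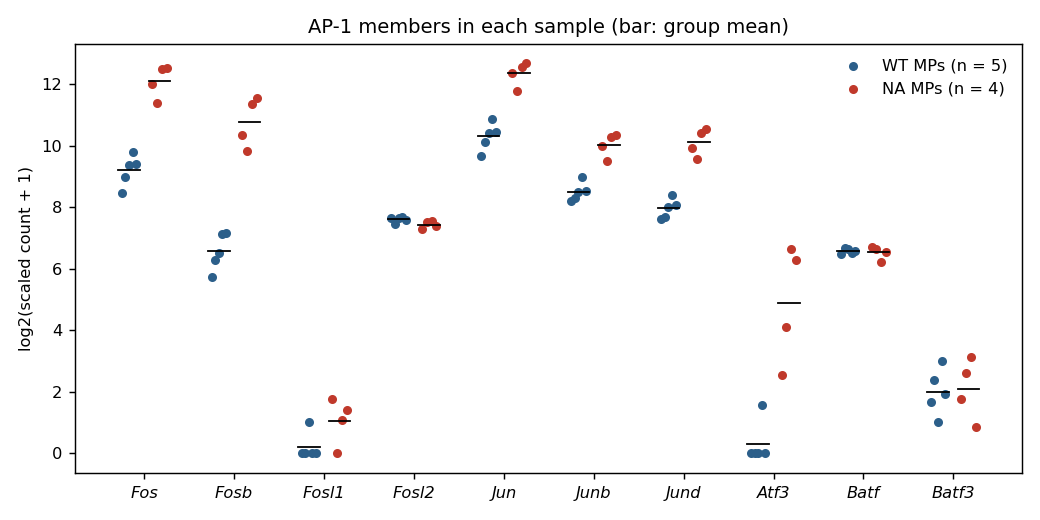
Scaled counts of the 10 AP-1 members in each sample (1 point per sample, log axis of value + 1), with NA MPs (n = 4) beside WT MPs (n = 5) and bars at the group means. Fos, Fosb, Jun, Junb, Jund and Atf3 are higher in every NA MP than in any WT MP, while Fosl2, Batf, Batf3 and Fosl1 overlap.

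The spread between replicates of the 5 called members was large. The coefficient of variation of Fos was 32.7% among NA MPs and 32.9% among WT MPs, where counting reads alone would give 1.5% and 3.98%. For Fosb it was 51.0% and 39.5%, for Jun 24.5% and 29.4%, for Junb 25.0% and 21.9% and for Jund 29.4% and 22.6%. Fosl2 (8.35% and 5.83%) and Batf (14.6% and 5.68%) were close to counting error, which gave 7.75% and 7.09% for Fosl2 and 10.6% and 10.2% for Batf. On the log2 scale the SD of Fos was 0.53 in NA MPs and 0.51 in WT MPs, while the median over all tested genes was 0.10 and 0.092. The differences between groups thus stood beside a replicate spread several times that of the usual gene, in both groups.

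This spread was shared. In NA MPs, replicate 2 was lowest, then replicates 1, 3 and 4, for each of Fos, Fosb, Jun, Junb and Jund. In WT MPs, replicate 1 was lowest, then 2, 3, 5 and 4, for Fos, Jun, Junb and Jund, while Fosb had replicates 4 and 5 exchanged at 139 and 143 scaled counts. Of all tested genes, 4.31% had the NA MP order of Fos and 16 genes, or 0.133%, had both orders. Those 16 included 4 members (Fos itself among them) and 5 other immediate early genes, which were Dusp1, Egr1, Zfp36, Ppp1r15a and Ier2, named here after their values were seen. The other 7 were on neither list. They were H3f3b, Ccl4 and Gm11175, which were called higher, and Pank3, March7, Zfp367 and Cep295, which were not past the threshold. Fosl2, with NA MP replicate 1 lowest, and Batf, with replicate 3 lowest, followed other orders. Atf3 had replicates 3 and 4 highest in NA MPs, like the called members, but replicate 1 lowest. Read depth was 5557718, 6600723, 6048377 and 8106140 reads in NA MP replicates 1 to 4 and 6141707, 7751467, 6509422, 6636187 and 7086153 in WT MP replicates 1 to 5, and its part in these orders was not tested.

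**Figure D2:**
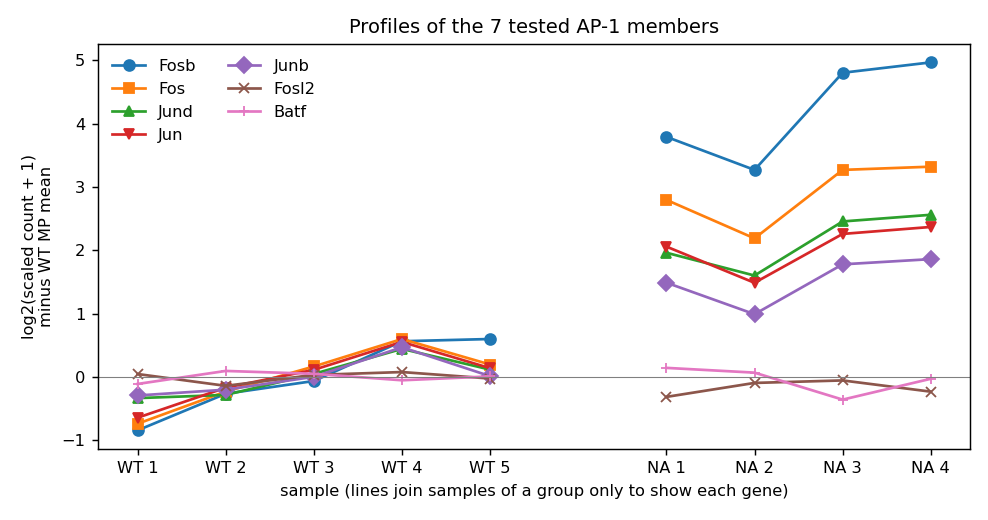
Log2 level of each tested AP-1 member in each of the 9 samples relative to its own WT MP mean, with samples along the horizontal axis and 1 line per gene. Fos, Fosb, Jun, Junb and Jund dip together at NA MP replicate 2 and at WT MP replicate 1, while Fosl2 and Batf stay near 0.

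How close the patterns were was measured as the root mean square difference between 2 genes over the 9 samples, each on the log2 scale relative to its WT MP mean. Jun and Jund were the closest pair of members at 0.16. Among the called members, Jun and Junb at 0.37 and Junb and Jund at 0.42 came next, so the 3 Jun genes were nearer to each other than to Fos. Fos was 0.53 from Jund and 0.58 from Jun, and Fosb was 0.91 from Fos. Fosl2 and Batf were 0.23 apart and at least 1.12 from every called member. Among 11942 genes, the nearest to Fos outside the family was Dusp1, a phosphatase of MAP kinases, at 0.11, followed by Pmaip1 (a BH3-only apoptosis gene) at 0.22, Ccl4 (a chemokine) at 0.30, Eya1 (a developmental transcriptional cofactor) at 0.35 and Zfp36 (an RNA-binding protein that shortens the life of cytokine mRNA) at 0.36. The nearest gene to Jun and to Jund was Gm11175, at 0.18 and 0.095, which overlaps Jund. Ier2, an immediate early gene, was nearest to Junb at 0.18. Hnf4a, a nuclear receptor gene, was nearest to Fosb but at 0.66. The measure holds the size of the difference between groups as well as the order of the replicates, and Fosb, with the largest difference, had the NA MP order of Fos. Hras (0.032) and Sh3d19 (0.057) were nearest to Fosl2 and Batf, whose profiles were nearly flat.

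Whether members changed by the same amount was tested on 6 ratios between them, each the difference of 2 log2(value + 1) levels within a sample, by exact two-sided permutation tests adjusted over the 6. Fosb gained on Fos: the log2 ratio of Fosb to Fos was -1.64, -1.56, -1.11 and -0.99 in NA MPs and -2.74, -2.67, -2.87, -2.67 and -2.24 in WT MPs, without overlap. The difference was 1.31 (exact p = 0.0159, adjusted p = 0.0238). Junb lost ground to Jun, with a log2 ratio of -2.32 ± 0.039 among the NA MPs (SD, n = 4) and -1.80 ± 0.20 among the WT MPs (SD, n = 5), a difference of -0.51 at the same p-values. Jun in turn lost ground to Fos, at 0.25 ± 0.15 (SD, n = 4) and 1.10 ± 0.072 (SD, n = 5), a difference of -0.85, and Fosl2 to Fos by -3.07, both also at an exact p = 0.0159 and an adjusted p = 0.0238. The Fosl2 ratio adds little to the Fos result, because Fosl2 stayed at 156 to 205 scaled counts in all samples. Jund kept pace with Jun within the spread, at -2.23 ± 0.14 (SD, n = 4) and -2.34 ± 0.18 (SD, n = 5), a difference of 0.10 in log2 ratio that ran from 0.070 to 0.18 with each sample left out in turn (exact permutation p = 0.333). Atf3 against Fos differed by 1.67 (exact permutation p = 0.111, adjusted p = 0.133), but its WT MP value was set by the offset of 1, and without NA MP replicate 1 the difference was 2.43 with an adjusted p of 0.0429. Without NA MP replicate 2, 3 or 4 the other 4 ratios had an adjusted p of 0.0536, with every direction kept.

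**Figure D3:**
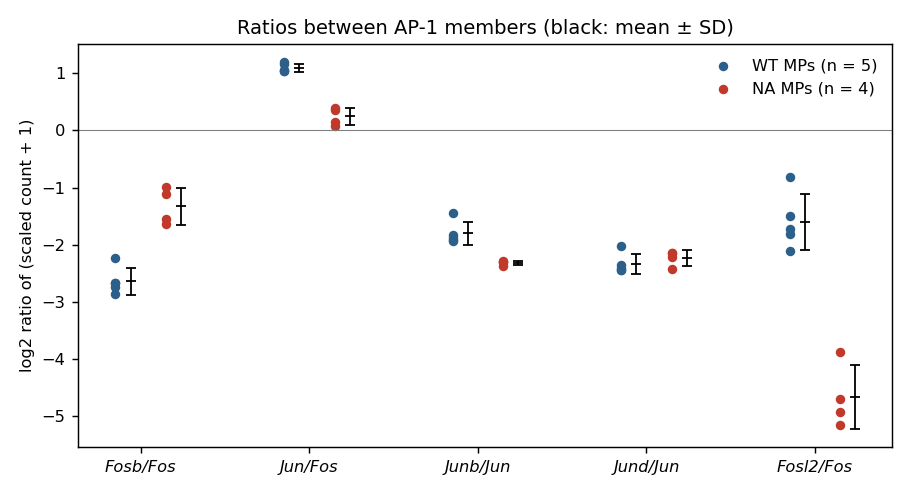
Log2 ratio between pairs of AP-1 members in each sample (1 point per sample), NA MPs (n = 4) beside WT MPs (n = 5), with bars at the group means. The ratios of Fosb, Fosl2 and Jun to Fos and of Junb to Jun separate the groups, and that of Jund to Jun overlaps.

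To compare levels between genes, scaled counts were divided by the merged exon length in kilobases. On this scale Fos was at 1955 ± 639 per kb (SD) in the 4 NA MPs and at 262 ± 86.3 in the 5 WT MPs, and Jun at 1675 ± 410 and 410 ± 121. Within samples, Fos was above Jun in all 4 NA MPs and below it in all 5 WT MPs, while the group means of the NA MPs differed by less than their SDs. Next came Jund at 686 and 152, Junb at 466 and 159 and Fosb at 314 and 16.05 per kb. Junb was above Jund in every WT MP except replicate 5, while their WT MP group means differed by less than their SDs. Batf stood at 65.7 and 67.2 per kb, Fosl2 at 17.8 and 20.1 and Atf3 at 22.7 and 0.186.

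Summed over the 10 members, the level per kb was 5205 ± 1526 (SD) for the 4 NA MPs and 1090 ± 281 for the 5 WT MPs, a 4.78-fold difference. In NA MPs Fos made up 37.2% ± 1.67 of the sum (SD, n = 4), and in WT MPs 23.7% ± 2.15 (SD, n = 5). The share of Fosb was 5.73% and 1.44%. The mean share of Jun went the other way, at 32.6% ± 2.20 and 37.3% ± 1.84, though the groups overlapped. That of Junb did so without overlap, at 9.05% and 14.8%. Jund held 13.2% and 14.1%, and Batf, whose own level was much the same, 1.39% and 6.49%. By subfamily, the Fos genes made up 43.3% ± 2.88 of AP-1 RNA in NA MPs and 27.1% ± 1.88 in WT MPs, and the Jun genes 54.8% ± 2.56 and 66.2% ± 0.860, with no overlap of the groups in either. With the longest transcript as the length, the share of Fosb was 8.48% and 2.13% and that of Jun 29.3% and 33.4%.

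**Figure D4:**
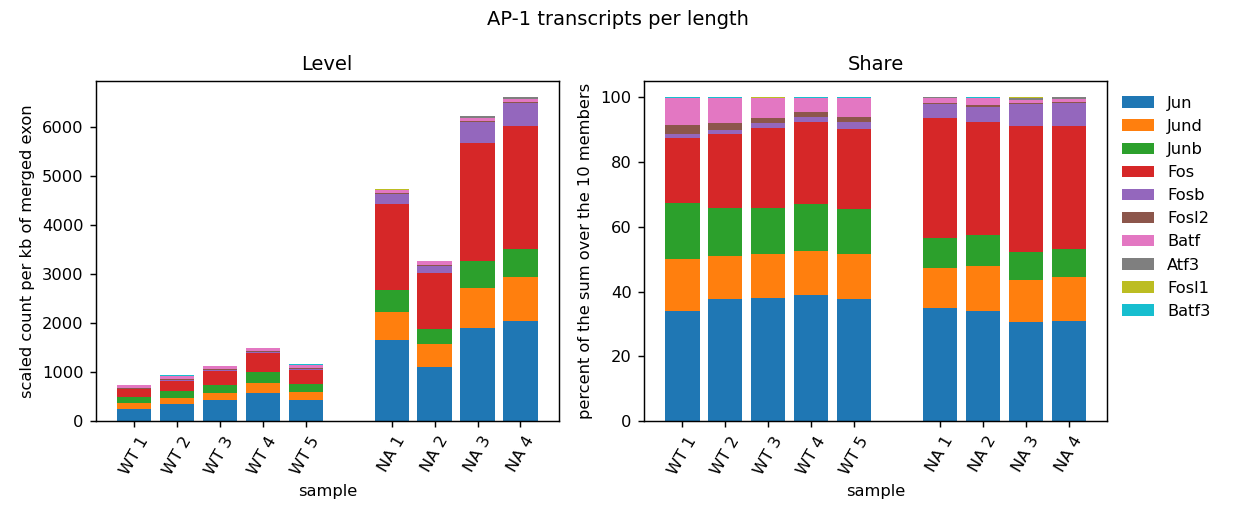
Share of each AP-1 member in the summed AP-1 level per kb of exon, in percent, as 1 stacked bar per sample for 4 NA MPs and 5 WT MPs. The Fos and Fosb parts are larger, and the Junb and Batf parts smaller, in every NA MP than in any WT MP.

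Other genes around AP-1 were read from lists. Among immediate early genes outside the family, of 24 tested, 20 were higher, 1 lower and 3 not past the threshold, beside 16.9% of all tested genes higher. Their median log2 fold change was 1.26. Klf2, a zinc finger factor, was higher at 3.24 (limma, adjusted p = 0.000235). Plk2, a kinase of the cell cycle and stress responses, had a larger fitted value of 3.42. It passed the filter only through the NA MPs, at 11.1 to 52.3 scaled counts against 0 to 2.04 in WT MPs. No test is therefore given for Plk2 by itself, although the 20 genes called higher and the median include it. In this list Myc was lower at -0.11 (limma, adjusted p = 0.00542). In 22 of these 24 genes NA MP replicates 3 and 4 were the highest NA MPs, as in 5 of the 7 tested AP-1 members and 16.5% of all tested genes.

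Of 13 known regulators of Fos and Jun transcription, 5 were higher and 1 lower, beside 16.9% and 17.3% of all tested genes, and the median log2 fold change was 0.069. Ets1 (0.71) and Mef2c (0.32) rose most and Creb1 (-0.15) fell, while Srf, which binds the serum response element of Fos, was at 0.095 (limma, adjusted p = 0.0744). Of 24 tested kinases of the MAP kinase pathways upstream of AP-1, 3 were higher and 3 lower, with a median of -0.052 and a smaller share called than the 34.3% of all tested genes. Map2k7 (0.18) and Rps6ka3 (0.15) had the largest rises, and Mapk9 (-0.25), which encodes a Jun kinase, and Map3k7 (-0.24) the largest falls. These are RNA levels, and the activity of a kinase is not measured by them.

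Among 21 tested bZIP genes outside the 10 members, 7 were higher and 2 lower (16.9% and 17.3% of all tested genes), with a median of 0.079. Maf (1.90) and Bach2 (1.23), bZIP factors of macrophages and lymphocytes and of B cells, had the largest values among those past the threshold, and Nfe2l2 (-0.24), the regulator of antioxidant genes, and Creb1 fell. Maf passed the filter only through the NA MPs, at 15.2 to 20.04 scaled counts against 2.16 to 8.0 in WT MPs, so its call and its place are a description. Of 13 tested textbook targets of AP-1, 6 were higher, 3 lower and 4 not past the threshold, with a median of 0.21. Hmox1 (2.03), a heme-degrading enzyme that is also on the macrophage marker list described later, and Tnf (1.45), a cytokine, rose most, and Gja1 (-0.83), a gap junction protein, and Mt2 (-0.55), a metallothionein, fell. Of 12 tested heat shock and chaperone genes, 3 were higher and 6 lower, with a median of -0.058. Hspa1b (2.16, whose reads may be shared with its near-identical copy Hspa1a) and Dnajb4 (0.41) were higher, and Hsph1 (-0.58) and Hspe1 (-0.26) lower. Hspa1b also passed the filter only through the NA MPs, at 13.2 to 21.2 scaled counts against 1.02 to 7.55. The summed level of the heat shock list was 54987 to 57248 in NA MPs and 58284 to 59104 in WT MPs.

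**Figure D5:**
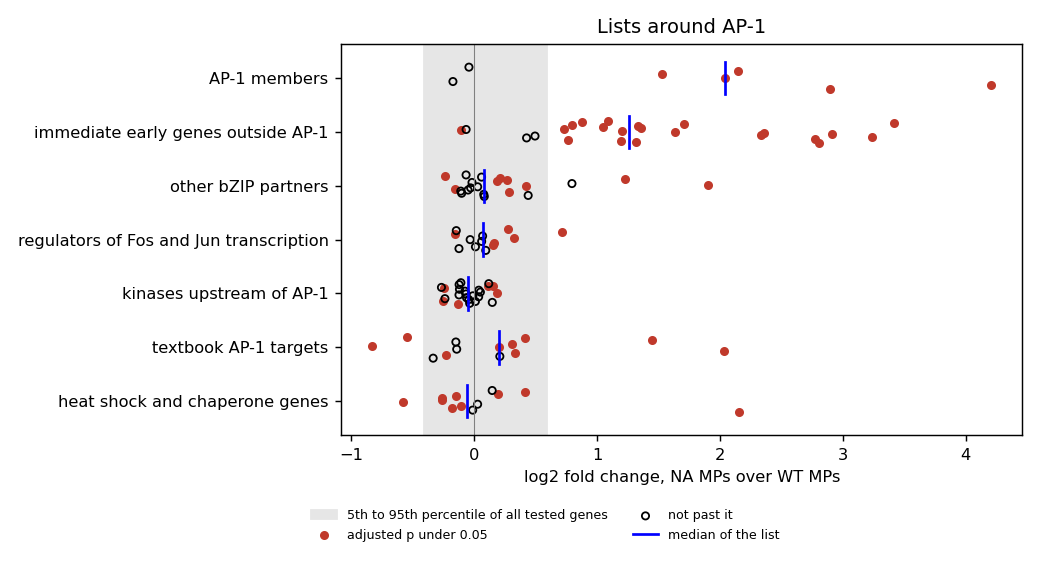
Log2 fold change of NA MPs over WT MPs for each tested gene in 7 lists (1 point per gene, filled where the limma adjusted p is under 0.05), with list medians as vertical lines and the 5th to 95th percentiles of all tested genes in grey. Only the AP-1 and immediate early lists have medians outside the grey band, at 2.05 and 1.26.

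Markers of the sorted cell type were present. Of 10 tested myeloid progenitor markers 4 were higher and 1 lower (median 0.069). Beside these and the marker counts below stand 16.9% higher and 17.3% lower among all tested genes. Kit, the receptor used in the gate, was at -0.037 (limma, adjusted p = 0.353). Prtn3 (0.19) and Ctsg (0.17), granule protease genes, had the largest log2 rises, and Fcgr3 (-0.57), an Fc receptor gene of the later progenitors, fell. Of 10 surface markers that a lineage-negative, Sca1-negative gate removes, 4 were tested and 3 were higher, among them Itgam (0.27) and Ptprc (0.26), and Cd3e was at 0. Markers of other cells also differed between the groups, in both directions. All 12 pro-B and pre-B markers were higher in NA MPs (2 of them, Vpreb3 and Pax5, passed the filter only through that group), with summed levels of 1493 to 2669 against 388 to 424 and none at 0, with Rag1 at a log2 fold change of 3.66. Of 12 macrophage markers 10 were higher and 1 lower, with sums of 1612 to 2428 against 1195 to 1322 and none at 0. The complement genes C1qc (2.50) and C1qa (2.34) rose most and Vcam1 (-0.25), an adhesion molecule gene, fell. Of 11 mature neutrophil markers 7 were tested, 3 were higher and 1 lower, with sums of 3271 to 5104 against 2793 to 3236. The granule genes Camp (0.90) and Ngp (0.90) rose and Mmp8 (-1.09), also a granule gene, fell. Of the T cell markers, 1 of 8 was tested and was higher, Lck (2.16), with sums of 50.4 to 71.1 against 11.98 to 19.6 and Cd3e and Cd3g at 0 in every sample. Of 8 mast cell and basophil markers 6 were higher and 1 lower, with sums of 5009 to 5810 against 3796 to 4012. Cma1 (1.88) and Fcer1a (1.38) rose most and Hdc (-0.24) fell. Cma1 was low in WT MPs, at 4.66 to 12.2 scaled counts with most of them under the filter value of 10, against 21.2 to 39.6 in NA MPs. Of 10 tested erythroid markers 9 were lower, among them Epor (-0.99), with sums of 5700.3 to 7176 against 10206 to 11244.

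The order of the NA MPs differed between these lists. The sum of the macrophage markers was highest in NA MP replicate 1, that of the pro-B and pre-B markers in replicates 2 and 3, and that of the neutrophil markers in replicates 3 and 4. NA MP replicates 3 and 4 were the highest NA MPs in 6 of 7 tested neutrophil markers, beside 16.5% of all tested genes. They were highest in 0 of 12 macrophage and 0 of 12 pro-B and pre-B markers, and for each of Fos, Fosb, Jun, Junb and Jund. Of the 7 neutrophil markers, 0 had the full NA MP order of Fos and 0 had its WT MP order. WT MP replicate 4, the highest WT MP for Fos, was highest in 1 of the 7. The part of these cell types in the AP-1 difference was not tested.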

How the data were processed

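Total RNA of 9 bone marrow samples was sequenced (TruSeq RNA kit, NextSeq 500). Per the labels and methods, the authors used bcl2fastq, RSEM and DESeq2 with mm10; versions, annotation and strand setting are not given in the sources used here. The deposited values are treated as a signal per gene: RSEM expected counts divided by 1 factor per sample, since 97.4% to 97.7% of values above 0 are whole multiples of 1 step (within 0.01 read, plus rounding). Depth was read from that step. Because they are not raw counts, the count test planned was replaced by limma 3.58.1 (trend, robust, R 4.3.3) on log2(value + 1), for genes with at least 10 in at least 4 samples, adjusted p threshold 0.05; count-based alternatives were not run. Values under 0.001 were set to 0. Single values were tested by exact two-sided permutation (smallest p 0.0159). The scripts were tested on simulated data with a smaller spread between replicates than the called members had. Genes named are all 10 members, the 2 largest rises and falls past the threshold in each list, the nearest gene to each tested member (5 for Fos), and Nup98 and Hoxa10; some genes that this rule names are not reported here. The members and lists were chosen with earlier results of these data known. Promoters on chromosome 18 were left out.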

Additional observations from a re-analysis of the deposited data

Results flagged for a closer look

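In 32 groups of 4 or 5 samples, 1 value each for a member or a ratio in a group, 4 had a sample far from the others (Dixon's criterion, which chance meets in about 1 in 20 groups). They are not independent: in 2 of them every other sample was at 0, so that any read meets the criterion, and the other 2 share the Jun level of 1 sample. Fosl1 in WT MP replicate 3 was at 1.02 scaled counts, 1 read, against 0 in the other 4 WT MPs. Atf3 in WT MP replicate 4 was at 2.0 scaled counts, 2 reads, against 0 in the others. WT MP replicate 1 had a log2 ratio of Junb to Jun of -1.45 and of Jund to Jun of -2.03, both above the other 4 WT MPs, and it was the WT MP with the lowest level of all 3 Jun genes.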

How the results depend on the processing

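Fos, Fosb, Jun, Junb and Jund were called higher under all 19 alternatives run, with log2 fold changes of 2.71 to 3.13, 3.96 to 4.52, 1.88 to 2.23, 1.42 to 1.71 and 2.01 to 2.33. The number of members called higher was 5 with each replicate left out and 6, with Atf3, without the filter on low values. The number called lower was 1 (Fosl2) with library size scaling (log2 fold change -0.19, adjusted p = 0.0495), without NA MP replicate 3 (-0.21) and without WT MP replicate 2 (-0.21), and ran from 0 to 1 with each replicate left out; by permutation Fosl2 also passed with library size scaling (-0.19, exact p = 0.0476). Batf reversed to 0.063 without NA MP replicate 3, the upper end of its range from -0.10 with each replicate left out; the causes were not tested. Called genes numbered 3634 to 3952 with each replicate left out (1804 to 1950 higher, 1802 to 2002 lower). At an adjusted p of 0.01 they numbered 2857, of which 1376 were lower, against 2077 lower of 4107. Scaling to library size gave 1854 higher and 2332 lower, and scaling to the median tested gene 2177 and 1855. The median of all genes moved by less than 0.1 (-0.023 to 0.0072). Same-numbered samples did not deviate together (correlations of 0.00616, 0.00314, -0.0204 and 0.0573), so the numbers do not pair them; with the replicate number as a block 3693 genes and the same number of members, 5, were called, and no call on a member changed. With each replicate left out, the difference in log2 ratio ran from 1.2 to 1.42 for Fosb to Fos, -3.33 to -2.87 for Fosl2 to Fos, -0.90 to -0.80 for Jun to Fos, -0.54 to -0.43 for Junb to Jun and 1.22 to 2.43 for Atf3 to Fos; fewer NA MPs leave fewer splits. With longest transcripts, NA MP and WT MP shares were 8.48% and 2.13% for Fosb, 29.3% and 33.4% for Jun, 10.3% and 16.9% for Junb and 11.9% and 12.6% for Jund, and in WT MPs 2.57% for Fosl2 and 8.54% for Batf. Pseudocounts of 0.5 and 4, scaling to the median gene and a variance factor for each group were added after seeing the data. Depth limits Fosl1, Batf3 and the WT MP level of Atf3.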
